A study of Homo sapiens with 2 samples.

Results

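Described here are 38 genes of glycolysis and of the response to low oxygen, out of 58174 genes in the expression table of PC3, a human prostate cancer cell line derived from a bone metastasis. The genes were listed by their known roles, though with earlier results of these data known. Each of the 38 symbols was found once in the table. Its 2 RNA sequencing libraries came from a PC3 culture given a control small interfering RNA (siRNA) and a PC3 culture given an siRNA against POH1, a proteasome subunit that removes ubiquitin chains from substrates (gene symbol PSMD14). The sources used here do not give the siRNA sequences, the time after transfection or the oxygen supply of the cultures. Each group was 1 library, so no value below has a replicate error, no test between the groups was possible, and no p-value is given.

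Levels are in TPM, a measure that takes out transcript length and library size, so that one gene can be set beside another. TPM keep no read depth, so counting error is unknown. The difference of a gene was taken as log2(TPM + 1) in the POH1 siRNA library less that in the control library, and a gene was called higher or lower when this reached 1.5-fold. Folds are ratios of the TPM themselves. All 38 genes had a mean of at least 1 TPM, as had 15008 genes of the table. PSMD14 itself was at 50.9 TPM with control siRNA and 35.1 TPM with POH1 siRNA, or 69.0% of the control level (difference -0.52, and -0.29 after the GC adjustment described below), which is within 1.5-fold. The cells carried epithelial transcripts such as KRT8 (517 and 556 TPM, control first) and EPCAM (124 and 141 TPM), while the prostate luminal markers were mixed. KLK2 and KLK3 were listed at 0 in both libraries, whereas HOXB13 was at 102 and 104 TPM, TMPRSS2 at 9.89 and 12.9 TPM, and FOXA1 at 30.8 and 52.3 TPM, the latter called higher. Of the leukocyte markers, CD68 was at 44.2 and 68.5 TPM, while PTPRC and CD3E lay at or near 0. Of 3 fibroblast markers, COL1A1 (30.9 and 47.8 TPM) was the only gene at 1 TPM or more, with COL3A1 and DCN under 1 TPM. The part of such transcripts in the differences given here was not tested.

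Glycolysis splits glucose into pyruvate in the cytosol with a small gain of ATP, and lactate dehydrogenase then converts pyruvate to lactate, which leaves the cell through monocarboxylate transporters. Many tumour cells keep this route active even where oxygen is present. When oxygen is short, prolyl hydroxylases stop marking the alpha subunits of the hypoxia-inducible factors (HIF) for ubiquitination by the VHL ligase and destruction by the proteasome. The stabilised alpha subunit pairs with ARNT and binds DNA at a short core motif beside genes for glucose uptake, glycolysis, vessel growth and survival.

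In the POH1 siRNA library 3 of the 38 genes passed 1.5-fold upward (PFKFB3, SLC16A1 and ARNT), 5 passed it downward (LDHA, LDHB, HIF1A, NDRG1 and P4HA1) and 30 lay within 1.5-fold. Across all 15008 genes, 10.2% were called higher and 8.88% lower, against 7.89% and 13.2% of the 38. The total called was 21.1% of the 38 and 19.1% of all genes, so the share of the 38 lay near the background. The median difference of the 38 genes was 0.14 and that of all genes 0.12. At 2-fold, LDHB and P4HA1 were lower and none of the 38 was higher, beside 2.93% and 2.15% of all genes. Both lactate dehydrogenase genes were called lower. Of the 15 enzyme genes of the steps before them none was called, 12 lay above 0, and ALDOC, TPI1 and PGK1 lay below it. Of all 15008 genes, 9182 lay above 0. None of the called genes but SLC16A1 has exons that overlap another gene of at least 1 TPM; besides those named later, such overlaps were found on the opposite strand for SLC2A1, HK2, PFKM, GAPDH, SLC16A3, PDK1 and BNIP3L, and on the same strand for GPI and PFKFB4.

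**Figure D1:**
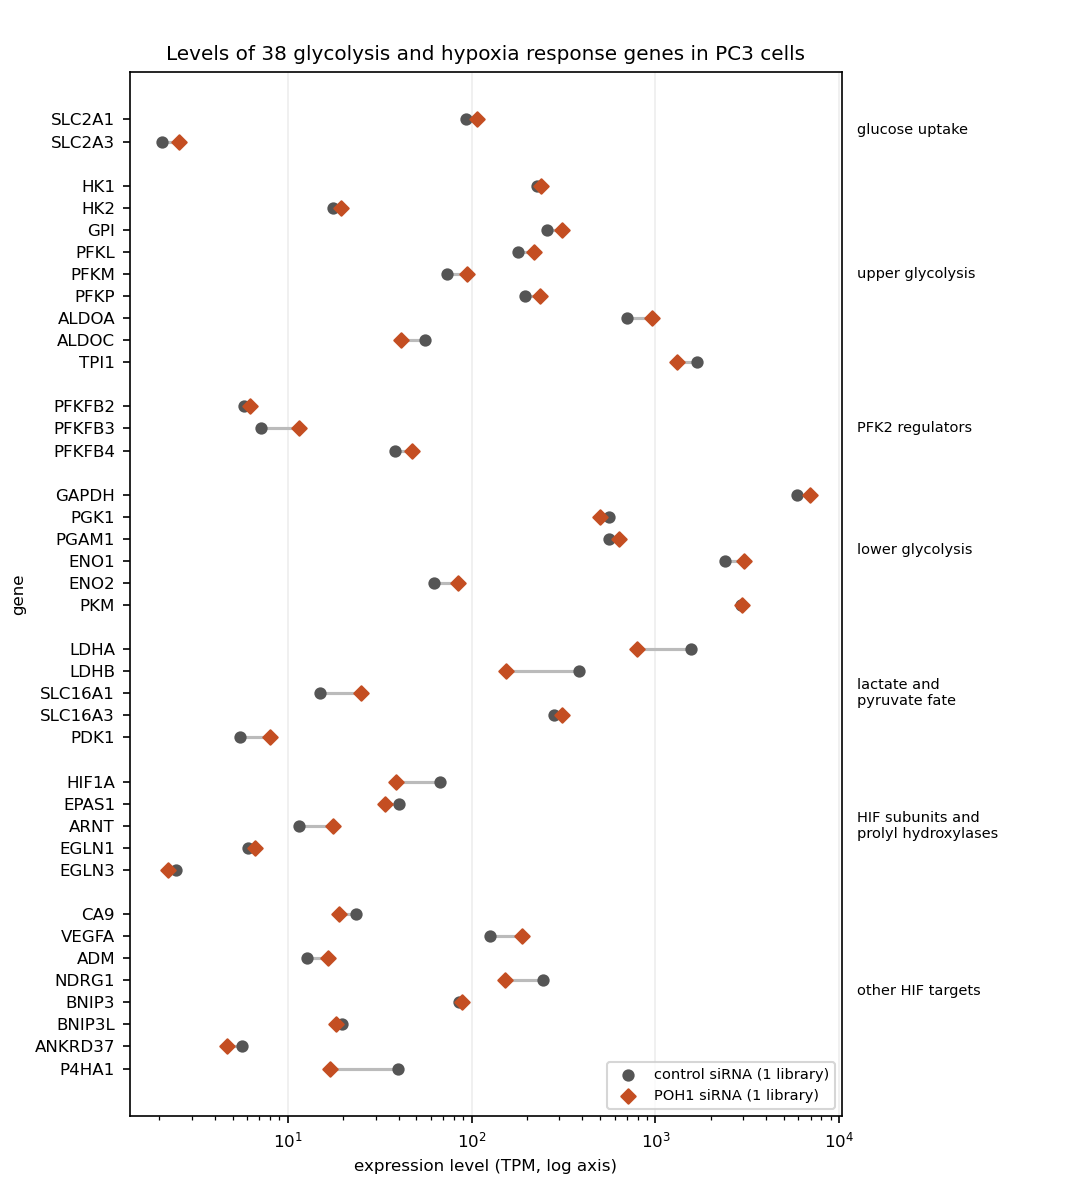
Expression level in TPM (horizontal log axis) of the 38 genes, grouped by role, in the control siRNA library (grey circles) and the POH1 siRNA library (orange diamonds), 1 library each. Most pairs of symbols nearly coincide, and the widest gaps are those of LDHA, LDHB, HIF1A and P4HA1, where the control lies to the right.

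The difference between the libraries also varied with the GC content of the transcripts, so the value after subtraction of the running median of genes of like GC content is given where it bears on a gene. In all genes the median difference was -0.17 at a GC content above 40% and up to 45%, and 0.24 above 55% and up to 60%. The Spearman correlation of the difference with GC content was 0.42 over all genes and 0.31 over the 38, as a description across genes measured in the same 2 libraries. The 38 genes had a median GC content of 54.4%, against 51.0% for all genes. Of the 5 lower genes, HIF1A (39.2%), P4HA1 (40.2%) and LDHB (44.0%) were in the range up to 45%, where 20.1% of all genes were called lower. LDHA lay just above it (45.4%), and NDRG1 (57.5%) lay in the range above 55%, where 1.82% of all genes were called lower. With the adjustment 3 genes were called higher (SLC16A1, ARNT and PDK1) and 4 lower (LDHA, LDHB, NDRG1 and P4HA1), beside 11.1% and 5.86% of all genes.

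**Figure D2:**
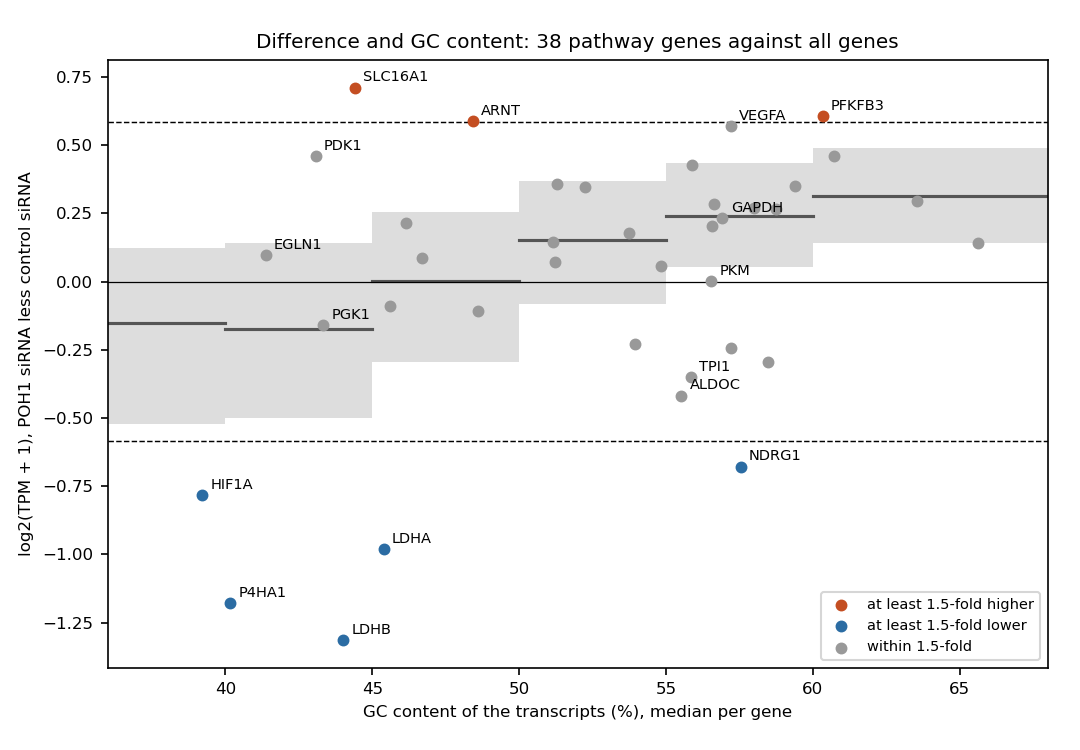
Difference in log2(TPM + 1), POH1 siRNA less control (vertical), against the GC content of the transcripts in percent (horizontal), with each point 1 of the 38 genes. Grey bands span the middle quartiles of all genes in each class of GC content, dark lines are their medians and dashed lines mark 1.5-fold; the called genes LDHA, LDHB, P4HA1, HIF1A and NDRG1 lie below the band of their class and SLC16A1, ARNT and PFKFB3 above it, as do, of the genes within 1.5-fold, ALDOC, TPI1, PKM, SLC16A3, EPAS1, CA9 and ANKRD37 below and PDK1 and VEGFA above.

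Because several of the genes are known HIF targets, the core motif of HIF, ACGTG, was looked for on both strands in the 250 bases before each start site listed by RefSeq (GRCh38.p14); a CACGTG counts once on each strand. A promoter was found for 32 of the 38 genes; SLC2A3, PFKFB2, SLC16A1, VEGFA, NDRG1 and BNIP3L had no match. At one or more start sites, 19 of the 32 genes (59.4%) held the motif, against 28.7% of 10461 measured genes and 21.7% of all 27305 genes with a promoter, where genes with several start sites have more chances of a match. The related GCGTG was held by 16 of the 32 genes and by 52.7% of measured genes. The sites of LDHA and P4HA1 are shown because both genes were lower, and those of PGK1 and GAPDH because they hold the same letters and lay within 1.5-fold. Capitals mark the motif on either strand, so that CACGT is a match read on the opposite strand.
LDHA, chr11:18394366-18394395, plus strand: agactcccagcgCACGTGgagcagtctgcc
LDHA, chr11:18394470-18394499, plus strand: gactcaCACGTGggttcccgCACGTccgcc
P4HA1, chr10:73096936-73096965, minus strand: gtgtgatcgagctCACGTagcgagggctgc
PGK1, chrX:78104043-78104072, plus strand: cggACGTGacaaacggaagccgCACGTctc
GAPDH, chr12:6535171-6535200, plus strand: gctctgcggggtCACGTGtcgcagaggagc
LDHA held 5 matches in its window, the most of the 32 genes by this count, in which its CACGTG sites count on both strands. Distinct sites were not ranked. LDHB, which was lower still, held none. The 19 genes with the motif had a median difference of 0.14, with 2 called lower and 1 higher. The 13 without it had a median of 0.18, also with 2 lower and 1 higher. Over measured genes the medians with and without the motif were both 0.12.

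Glucose enters through the facilitative transporters. SLC2A1, which encodes GLUT1, the widespread transporter of proliferating cells, was at 93.1 TPM in the control and 107 TPM with POH1 siRNA. SLC2A3, which encodes the high-affinity transporter GLUT3, was at 2.07 and 2.56 TPM. GLUT1 thus made up 97.8% and 97.7% of the summed TPM of this pair, and both genes lay within 1.5-fold.

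None of the 9 genes of upper glycolysis was called, and 7 of them lay above 0. Among all 15008 genes, 19.1% were called and 9182 lay above 0. Hexokinase, which traps glucose in the cell as its phosphate, was mostly HK1 (226 and 238 TPM), with HK2, the inducible form often raised in tumours, at 17.6 and 19.6 TPM. HK2 made up 7.07% of the summed TPM of 5 hexokinase genes in the control library and 7.45% in the POH1 siRNA library. GPI, the isomerase of the next step, was at 257 and 309 TPM. The subunits of phosphofructokinase, the main control point of the pathway, were at 179 and 219 TPM (PFKL), 73.1 and 93.8 TPM (PFKM) and 195 and 234 TPM (PFKP). All 3 were 1.21-fold to 1.28-fold higher, and the share of PFKP in their sum was 43.6% and 42.8%, so the make-up of the family was the same in both libraries to within 1 percentage point.

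Aldolase, which cleaves the 6-carbon sugar into 3-carbon units, was the step at which isozymes went opposite ways, although neither passed 1.5-fold. ALDOA, the main form, was at 698 and 961 TPM, a difference of 0.46. ALDOC, a form typical of brain and a known HIF target, was at 55.5 and 41.3 TPM, a difference of -0.42. ALDOC therefore made up 7.36% of aldolase TPM in the control library and 4.12% in the POH1 siRNA library. TPI1, which interconverts the products of aldolase, was at 1677 and 1316 TPM (difference -0.35), and its exons overlap those of SPSB2 on the opposite strand (17.0 and 24.3 TPM).

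The PFKFB enzymes set the level of the sugar bisphosphate that activates phosphofructokinase. PFKFB3, the form most strongly biased towards its kinase activity and a known HIF target, was 1.59-fold higher (7.18 and 11.4 TPM, difference 0.61). This call held under 6 of the 11 alternatives described below. It was lost after the GC adjustment (0.43) and after scaling to a median ratio of 1 (0.48). It was also lost with a pseudocount of 5 TPM (0.43) and a trimmed mean as the scale (0.49). Taking mitochondrial and top 50 genes out of the total lost it too (0.56). PFKFB4 was at 38.5 and 47.1 TPM and remained the most abundant of the family, with 73.2% and 72.3% of its summed TPM. PFKFB2 was at 5.80 and 6.21 TPM. The share of PFKFB3 was 13.7% in the control library and 17.6% in the POH1 siRNA library.

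None of the 6 genes of lower glycolysis was called, beside 19.1% of all genes. By mean TPM these 6 genes ranked from 13 (GAPDH) to 246 (PGK1) among all genes, except ENO2 (2139). GAPDH, which makes the first high-energy phosphate of the pathway and is a common reference gene, was at 5895 and 6931 TPM. PGK1, which makes the first ATP of the lower pathway, was at 558 and 499 TPM (difference -0.16, and 0.16 after the GC adjustment). PGAM1 was at 561 and 633 TPM, and its near-identical copy PGAM4 at 17.6 and 22.2 TPM, so that reads may have been split between them. The enolase ENO1 was at 2388 and 3035 TPM, a 1.27-fold higher value, and ENO2, the neuronal form, at 62.2 and 84.0 TPM. PKM, the pyruvate kinase gene, was nearly the same in both libraries (2938 and 2941 TPM); its M1 and M2 splice forms cannot be told apart in values per gene.

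Taking upper and lower glycolysis as 15 genes, their TPM summed to 15778 in the control library and 17557 in the POH1 siRNA library. Of the 15, 12 lay above 0, as did 9182 of all 15008 genes, and 10 lay above the median of all genes. The median difference of the 15 was 0.23. After scaling to a median ratio of 1, which lowered the median of all genes by 0.12, 10 of the 15 lay above 0 and their median was 0.096, with HK1 and PKM below 0. The GC adjustment brought the median to 0.12, close to that of all genes.

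**Figure D3:**
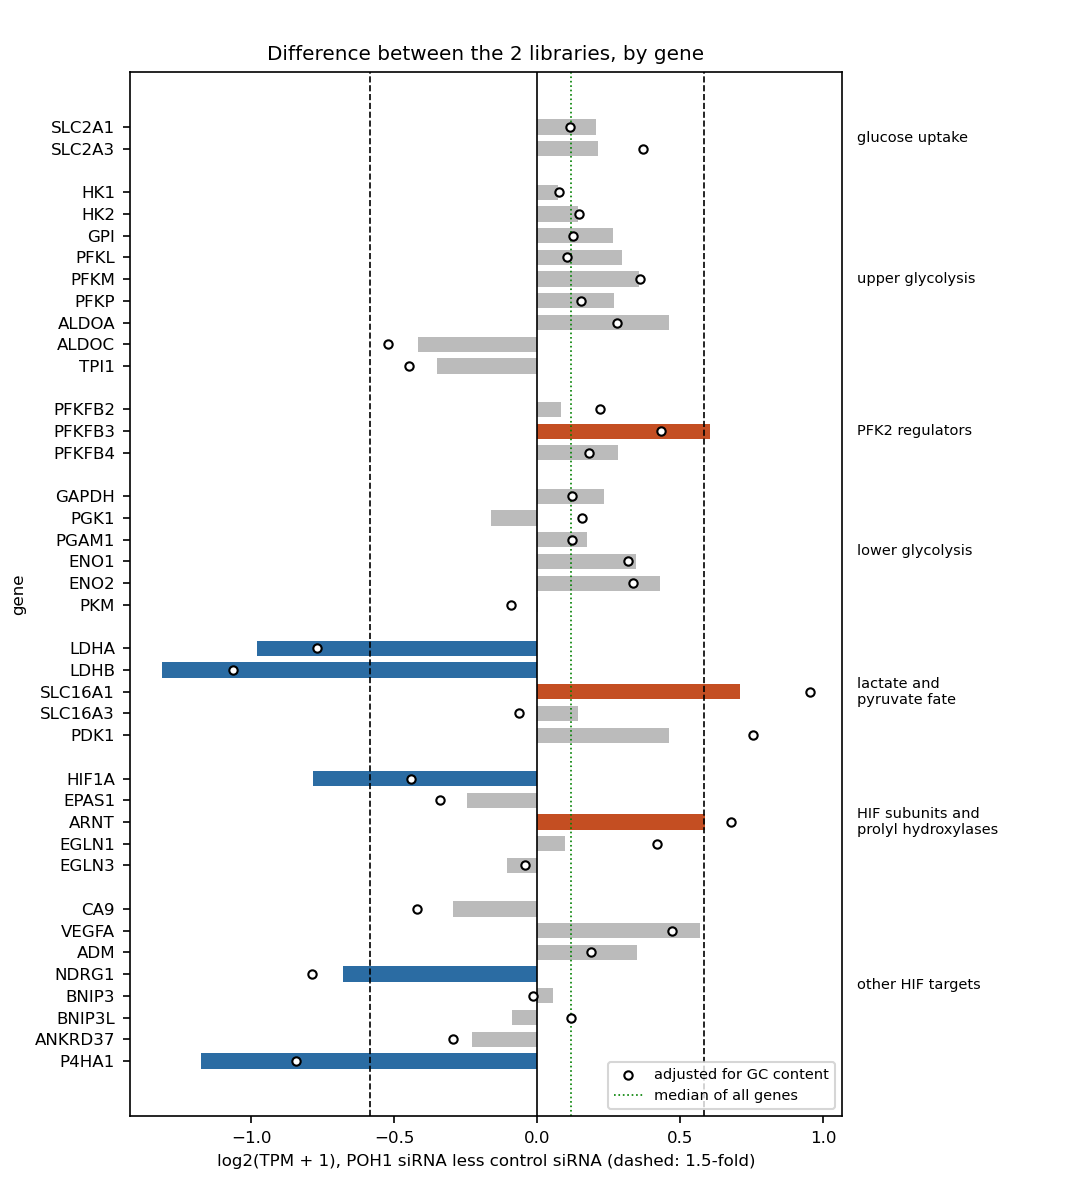
Difference in log2(TPM + 1), POH1 siRNA less control (horizontal), for each of the 38 genes by role; orange bars were at least 1.5-fold higher, blue bars at least 1.5-fold lower and grey bars within 1.5-fold, with dashed lines at 1.5-fold. Open circles are the values adjusted for GC content and the green dotted line is the median of all genes (0.12); no glycolytic step enzyme reaches a dashed line, while LDHA and LDHB pass the left line with and without the adjustment.

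Both lactate dehydrogenase genes, which act after pyruvate, were called lower. LDHA, the subunit that favours the making of lactate, was at 1563 TPM in the control and 792 TPM with POH1 siRNA. Its level was 1.97-fold lower, a difference of -0.98, and -0.77 after the GC adjustment. LDHB, the subunit that favours the return of lactate to pyruvate, was at 385 and 154 TPM, a 2.49-fold lower value (difference -1.31, and -1.06 adjusted). Their sum was 1948 TPM in the control and 947 TPM with POH1 siRNA. LDHA remained the main form, with 80.2% and 83.7% of the sum, and the ratio of LDHA to LDHB was 4.06 and 5.13.

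Ratios within a library do not depend on how that library was scaled. PKM exceeded LDHA 1.88-fold in the control library and 3.71-fold in the POH1 siRNA library, and GAPDH exceeded LDHA 3.77-fold and 8.75-fold. These ratios are not adjusted for GC content, which was 45.4% for LDHA, 56.5% for PKM and 56.9% for GAPDH. The adjusted differences were -0.77 for LDHA, -0.09 for PKM and 0.12 for GAPDH, so part of the change in the ratios followed GC content. Of the 127 genes whose mean reached 1000 TPM, LDHA among them, 7.87% were called lower. Adding the 6 named pseudogenes of LDHA left its unadjusted difference at -0.98. In RNA from whole cultures, fewer cells of a type and less RNA per cell cannot be told apart. Both LDH calls held under every alternative processing tried here, although some of these could not change the values of the LDH genes.

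Lactate crosses the membrane through monocarboxylate transporters. SLC16A1, which encodes MCT1, was 1.68-fold higher (14.99 and 25.2 TPM, difference 0.71), the largest difference upward among the 38 genes, and 0.95 after the GC adjustment. It missed 1.5-fold after scaling to a median ratio of 1 (0.58), and its exons overlap those of SLC16A1-AS1 on the opposite strand (3.48 and 5.04 TPM). SLC16A3, which encodes the HIF-induced exporter MCT4, was at 282 and 312 TPM, and made up 94.96% and 92.5% of the TPM of the pair. PDK1, the kinase that shuts pyruvate out of the mitochondrial pyruvate dehydrogenase complex, was at 5.52 and 7.97 TPM, a difference of 0.46 that became 0.75 and was called with the GC adjustment. Thus MCT1 and PDK1 lay above the control where both LDH genes lay below it.

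**Figure D4:**
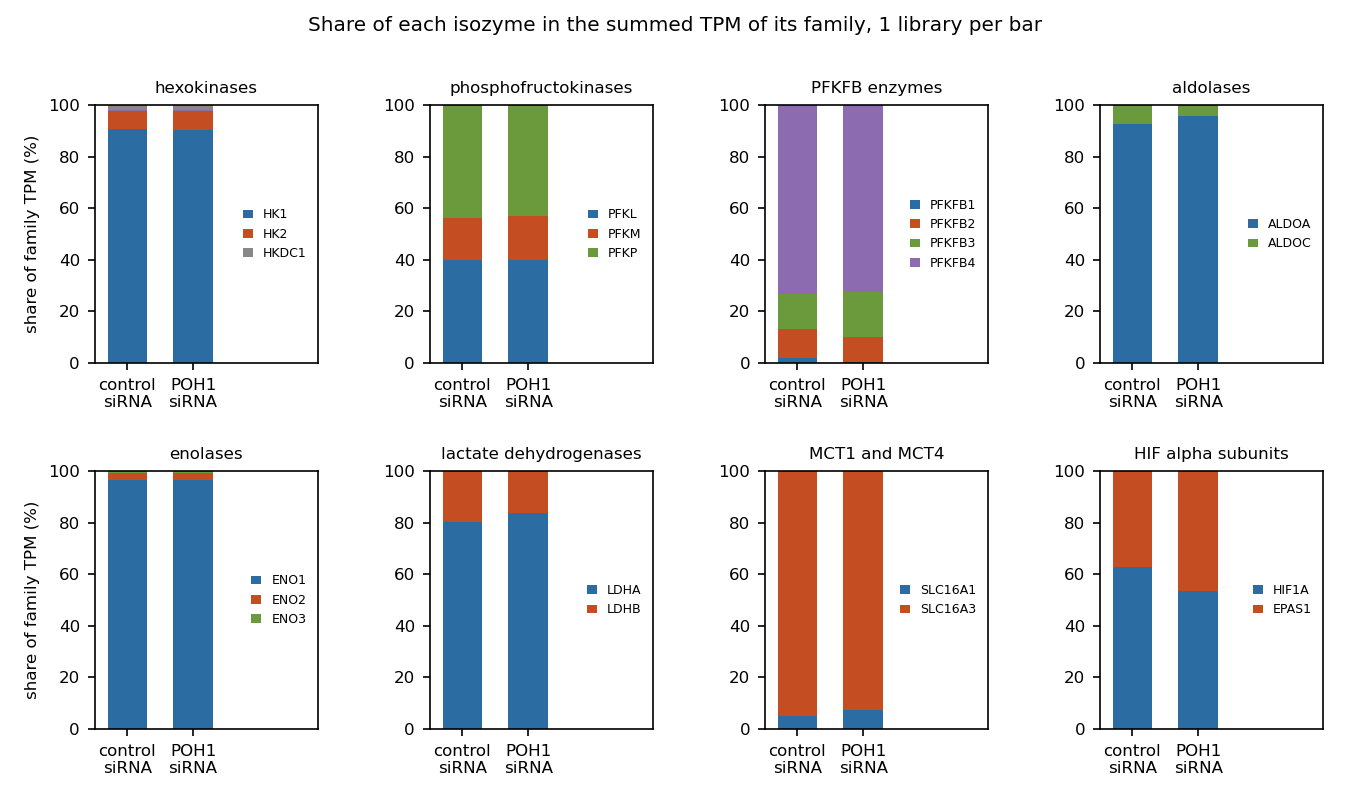
Share of each isozyme in the summed TPM of its family in percent (vertical), with 1 bar for the control siRNA library and 1 for the POH1 siRNA library in each of 8 families; genes under 0.5% in both libraries are drawn without a name. The bars of hexokinases, phosphofructokinases and enolases look alike in both libraries. The HIF1A share of the HIF alpha subunits is 62.7% in the control library and 53.5% in the POH1 siRNA library. Shares are not adjusted for GC content, which is 39.2% for HIF1A and 57.2% for EPAS1.

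The transcripts of HIF itself did not go one way. HIF1A, the alpha subunit most tied to glycolytic genes, was 1.74-fold lower in the POH1 siRNA library (67.3 and 38.7 TPM, difference -0.78). With the GC adjustment its difference was -0.44, which is within 1.5-fold. EPAS1, which encodes HIF2A, was at 40.1 and 33.6 TPM (difference -0.25, and -0.34 after the GC adjustment). The share of HIF1A in the sum of both was 62.7% and 53.5%. That share is not adjusted for GC content, which was 39.2% for HIF1A and 57.2% for EPAS1. With the adjustment the differences of both genes lay nearer each other. ARNT, the partner of both, was 1.55-fold higher (11.4 and 17.7 TPM), just past the limit (difference 0.59, and 0.68 after the GC adjustment). The ARNT call held under 7 of the 11 alternatives described below. It was lost after scaling to a median ratio of 1 (0.46) or by a trimmed mean (0.47). It was also lost with a pseudocount of 5 TPM (0.46) and without mitochondrial and top 50 genes in the total (0.53). The ratio of HIF1A to ARNT, free of scaling, was 5.88 in the control library and 2.19 in the POH1 siRNA library. It is not adjusted for GC content, which was 39.2% for HIF1A and 48.4% for ARNT. The HIF proteins, which are controlled by degradation, were not measured here.

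The prolyl hydroxylases that mark HIF for destruction are themselves partly HIF targets. EGLN1, the main sensor in most cells, was at 6.09 and 6.59 TPM, and EGLN3, which is strongly induced by HIF in many cells, was at 2.46 and 2.21 TPM. Neither was called. A further list held 11 genes of oxygen sensing, of which 10 had a mean of at least 1 TPM; 1 was higher, 2 were lower and 7 lay within 1.5-fold, beside 10.2% higher and 8.88% lower among all genes. VHL, the substrate receptor of the HIF ubiquitin ligase, was 1.70-fold higher (14.9 and 25.3 TPM). Its partner ELOC, or elongin C, was 1.76-fold lower (161 and 91.0 TPM) and the RING subunit RBX1 was 1.64-fold lower (75.8 and 46.3 TPM), with differences of -0.55 and -0.47 after the GC adjustment, both within 1.5-fold. With the adjustment the list had 2 higher genes and none lower: VHL (0.84) and CUL2, the cullin of the same ligase (26.9 and 35.4 TPM, adjusted difference 0.67), which was singled out with its values known. EGLN2 was at 29.5 and 42.3 TPM and shares exons with the read-through gene RAB4B-EGLN2.

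The 8 remaining HIF targets were mixed, with 2 lower, none higher and a median difference of -0.16, beside 8.88% lower and 10.2% higher among all genes. P4HA1, a prolyl hydroxylase that modifies collagen in the endoplasmic reticulum, was 2.34-fold lower (39.6 and 16.9 TPM, difference -1.18, and -0.84 adjusted). NDRG1, a stress and differentiation gene used as a marker of hypoxia, was 1.60-fold lower (244 and 152 TPM, difference -0.68, and -0.79 adjusted). VEGFA, the angiogenic growth factor, went the other way and fell just short of the limit (126 and 187 TPM, difference 0.57). ADM, a vasodilator peptide gene, was at 12.7 and 16.5 TPM. The other 4 targets differed by less than these.

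CA9, a membrane carbonic anhydrase with almost no expression in most normal tissues, was at 23.6 and 19.1 TPM, and ANKRD37 was at 5.62 and 4.65 TPM. Exons of both overlap a gene on the opposite strand, ARHGEF39 (5.20 and 3.11 TPM) for CA9 and UFSP2 (12.5 and 9.88 TPM) for ANKRD37. The mitophagy receptors BNIP3 (84.9 and 88.3 TPM) and BNIP3L (19.6 and 18.4 TPM) differed by 0.06 and -0.09. After scaling to a median ratio of 1, 2 of these 8 genes lay above 0 in place of 3.

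Another list held 30 further HIF targets, of which 28 had a mean of at least 1 TPM. Of these, 3 were higher, 4 were lower and 21 lay within 1.5-fold, which is 10.7% higher and 14.3% lower beside 10.2% and 8.88% of all genes. Their median difference was 0.16. The largest differences were those of the 4 lower genes. MAFF, a small Maf transcription factor, was 4.46-fold lower (59.5 and 13.3 TPM) with a GC content of 59.4%. FAM162A, a mitochondrial protein gene, was 2.69-fold lower (84.0 and 31.3 TPM), RBPJ, the DNA-binding factor of Notch signalling, 2.66-fold lower (11.6 and 4.37 TPM) and INSIG2, a regulator of sterol synthesis, 2.60-fold lower (8.54 and 3.29 TPM). The 3 higher genes, named after their values were seen, were KDM4B (13.6 and 27.7 TPM), EFNA1 (34.8 and 63.3 TPM) and ZNF395 (14.6 and 24.5 TPM, sharing exons with FBXO16); ZNF395 was not called with the GC adjustment (0.51). Well-known targets such as DDIT4 (62.1 and 69.7 TPM) and BHLHE40 (86.2 and 114 TPM), also named after their values were seen, lay within 1.5-fold.

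Among 24 further glycolytic isozymes and transporters, 14 had a mean under 1 TPM, among them the liver and testis forms HK3, PKLR, PGK2 and GAPDHS, which were listed at 0 in both libraries. Of the 10 others, 2 were higher, none was lower and 8 lay within 1.5-fold, beside 10.2% higher and 8.88% lower among all genes. The higher ones were the transporter genes SLC2A8 (11.2 and 19.3 TPM) and SLC2A10 (6.79 and 10.9 TPM), neither of which was called with the GC adjustment. ADPGK, a glucokinase that uses ADP, was at 13.7 and 20.7 TPM and ENO3, the muscle enolase, at 17.2 and 24.7 TPM. ENO3 overlaps the far more abundant PFN1 on the opposite strand (1231 and 1490 TPM), and without strand in the counting the reads of both cannot be told apart.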

How the data were processed

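Messenger RNA libraries were made from total RNA of PC3 cells, 1 per group, per the labels' protocols. The authors deposited TPM per gene in both libraries; CASAVA, HISAT2 and the build hg19 are named in the submitters' processing notes, and the sources used here do not give versions, the annotation, the tool that gave TPM or the use of strand. Without counts there is no depth per library and no count test. Of 58174 identifiers, 57392 were given a symbol. GENCODE 29 (GRCh38) supplied gene types, overlaps and GC content (the median over a gene's transcripts, found for 99.8% of measured genes); its coordinates are not printed, since the build differs from that of the authors. Differences used a pseudocount of 1 TPM and a mean of at least 1 TPM, with calls at 1.5-fold. The GC adjustment subtracted the running median over 501 genes and added back the overall median. The 38 genes, the 7 further lists (of each, the 4 largest differences are named) and the alternatives were chosen with earlier results of these data known. The calculation was tested on simulated data. Python 3.11.15, numpy 2.4.6 and pandas 2.3.3 were used.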

Additional observations from a re-analysis of the deposited data

How the results depend on the processing

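The counts, the median and the differences of the 38 genes were recomputed under 11 alternatives (10 for SLC2A3 and EGLN3, which miss the filter at 5 TPM); isozyme shares had only the sums with pseudogenes and with genes sharing exons, and the further lists only the GC adjustment. The count of 5 lower genes was the same under 10 of them and was 4 with the GC adjustment, which took HIF1A within 1.5-fold. LDHA, LDHB, NDRG1 and P4HA1 were called lower under all 11, but several of these could not move their differences. The filters and the limit to protein-coding genes change only which genes are counted. The sums with genes sharing exons left the values of these genes as they were. The sums with named pseudogenes also left NDRG1 and P4HA1 unchanged. The count of 3 higher genes was less stable. It was 1 with a pseudocount of 5 TPM and 0 after scaling to a median ratio of 1. It was also 1 with a trimmed mean as the scale. Taking mitochondrial genes and the top 50 genes by TPM out of the total gave 1 too. Where the count was 1, the gene was SLC16A1. In all genes, 53.5% of calls were on the higher side, against 33.7% after scaling to a median ratio of 1, 35.3% with the trimmed mean and 65.4% with the GC adjustment. The median difference of the 38 genes less that of all genes was 0.02. It was 0.10 without a filter on low values and -0.0014 with a filter at a mean of 5 TPM, so its sign depended on the filter. Of the 30 genes within 1.5-fold, 29 stayed there under all alternatives run for them, the exception being PDK1 with the GC adjustment. Sums with named pseudogenes or with genes sharing exons changed no call, and no isozyme share by 1 percentage point. No paired analysis was possible because each group held 1 library. Depth is unknown, so low genes such as SLC2A3 and EGLN3 have an unknown counting error.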

Other observations

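The routes that branch from glycolysis or follow it were given by lists of their own. All 7 genes of the pentose phosphate pathway, which makes NADPH and ribose from glucose phosphate, lay above 0 and above the all-gene median. The median difference of these 7 was 0.29, and none of them was called. Among all 15008 genes, 9182 lay above 0 and 19.1% were called. PGD was at 338 and 445 TPM (control first), TALDO1 at 442 and 558 TPM, RPE at 15.1 and 19.2 TPM and RPIA at 15.8 and 19.5 TPM. After the GC adjustment the median of this list was 0.23, beside 0.12 for all genes. Of 12 measured genes for the entry of pyruvate into mitochondria, 1 was higher and 1 lower (8.33% each), beside 10.2% and 8.88% of all genes; with the GC adjustment 3 were higher and none lower. The higher gene was PDP1, the phosphatase that reactivates pyruvate dehydrogenase, at 14.5 and 33.2 TPM (2.30-fold). The lower gene was PDK3, a kinase that inactivates it, at 7.39 and 4.45 TPM, which lay within 1.5-fold after the GC adjustment (-0.34). MPC1, a subunit of the mitochondrial pyruvate carrier, was at 11.3 and 14.4 TPM (adjusted difference 0.61, called higher), DLAT, singled out with its values known, at 15.3 and 18.8 TPM (adjusted 0.59, called higher) and PDK2 at 56.5 and 70.2 TPM.

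Of the 17 genes listed for the citric acid cycle, 2 were higher and 2 lower (11.8% each, beside 10.2% and 8.88% of all genes). Their median difference was 0.06. The list includes MDH1, 1 of the 2 lower genes, although its enzyme is not the mitochondrial one. MDH1, the cytosolic malate dehydrogenase, which like LDH reoxidises NADH made in glycolysis, was 1.87-fold lower (261 and 139 TPM, difference -0.90, and -0.64 with the GC adjustment), while its mitochondrial counterpart MDH2 (403 and 427 TPM; a gene chosen for mention with its values known) lay near the control. SDHC was 1.61-fold lower (82.2 and 51.1 TPM), whereas SDHA, another subunit of the same complex, was 1.52-fold higher (146 and 222 TPM). CS, citrate synthase, was 1.55-fold higher (51.1 and 79.0 TPM) and shares exons with another measured gene; neither SDHA nor CS was called with the GC adjustment. Of 10 glycogen and gluconeogenesis genes, 1 was lower, UGP2 (18.1 and 9.15 TPM), and none higher, beside 8.88% and 10.2% of all genes. GYS1 was at 65.7 and 92.3 TPM, PCK2 at 11.5 and 15.3 TPM and GBE1 at 17.0 and 13.6 TPM.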
